A study of Mus musculus with 12 samples.

Results

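The 7 genes of the IL-12 family and the IL-15 axis were followed across migratory dendritic cells (DCs) of 3 mouse organs. The set held Il12a, Il12b, Il23a, Il27, Ebi3, Il15 and Il15ra, the cytokine chains of the IL-12 family with IL-15 and its presenting receptor chain, taken by symbol from the 55401 genes of the deposited tables. All 7 were among the 44624 genes that passed the filter on low counts and were tested. The cells came from liver, duodenum or pancreas of B6 mice aged 6 to 8 weeks, with no treatment or engineered allele named for any group, so that the tissue is the 1 difference between groups that the labels give. Each tissue had 4 libraries of polyA RNA, and each library pooled 2 mice. Live cells were sorted as CD45+, lineage-negative and CD103+, without CD11b and with CD11c and high MHC class II, the surface profile of migratory conventional type 1 DCs (cDC1), and this bulk sort cannot tell fewer cells of a type from less RNA per cell.

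Cytokines of the IL-12 family are pairs of chains. The p40 chain, encoded by Il12b, joins the p35 chain of Il12a to make IL-12, which drives T cells and NK cells to make interferon-gamma, or the p19 chain of Il23a to make IL-23, which acts on T cells and innate lymphocytes of the gut. The EBI3 chain joins the p28 chain of Il27 to make IL-27, or p35 to make IL-35. IL-15, encoded by Il15, sustains NK cells and memory CD8 T cells, and DCs hold it on their surface bound to the receptor chain of Il15ra and present it to neighbouring cells. cDC1 are known as a main source of IL-12 and as carriers of IL-15 on their surface.

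The libraries held 220897606 to 356072585 estimated counts. Levels are given as TPM, a relative transcript abundance that corrects for the length of a gene and the size of a library, and differences as log2 differences of estimated counts with their standard error (SE). All 10 markers of cDC1 were present in every tissue, and their summed level was 2099 to 2330 TPM in liver, 1618 to 2186 TPM in duodenum and 1888 to 2057 TPM in pancreas. Those of cDC2, the second kind of conventional DC, summed to 8.99 to 16.0 TPM in liver, 41.5 to 62.8 TPM in duodenum and 8.02 to 11.2 TPM in pancreas. Plasma cell markers, of a cell type the gate was not set for, summed to 9664 to 14647 TPM in duodenum, 95.5 to 1432 TPM in liver and 100 to 1697 TPM in pancreas, the upper ends being liver 2, pancreas 3 and pancreas 4. The list of immediate-early and heat-shock genes, induced by stimulation or by handling of cells, summed to 2233 to 3190 TPM in duodenum, 369 to 431 TPM in liver and 390 to 717 TPM in pancreas. Duodenum 2, the library with the largest total, stood apart in that 4807 genes were called between liver and duodenum without it and 3265 with it. The p-values given here measure the spread between these pools.

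The promoters of Il12b, Il15ra and Ebi3 are shown because the first 2 of these genes differed together between tissues while Ebi3 overlapped in all of them. Each sequence is the 250 bases before a transcription start in RefSeq on build GRCm38.p6, written 5′ to 3′ on the gene's strand, and the capitals mark motif matches. Il15ra has 2 annotated starts. RefSeq windows were matched for 4 of the 7 members, with those of Il12a not printed.
Il12b, chr11:44399813-44400062, + strand: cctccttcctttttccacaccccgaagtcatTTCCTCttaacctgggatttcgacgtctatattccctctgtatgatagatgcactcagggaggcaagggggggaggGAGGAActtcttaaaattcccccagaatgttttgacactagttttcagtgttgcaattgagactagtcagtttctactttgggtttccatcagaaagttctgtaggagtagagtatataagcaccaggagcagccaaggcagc
Il15ra, first start, chr2:11705043-11705292, + strand: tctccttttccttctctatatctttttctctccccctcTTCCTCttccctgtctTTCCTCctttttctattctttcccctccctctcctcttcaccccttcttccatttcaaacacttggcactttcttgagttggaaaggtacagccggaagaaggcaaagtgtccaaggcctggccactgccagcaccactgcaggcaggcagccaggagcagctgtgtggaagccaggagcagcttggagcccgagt
Il15ra, other start, chr2:11705462-11705711, + strand: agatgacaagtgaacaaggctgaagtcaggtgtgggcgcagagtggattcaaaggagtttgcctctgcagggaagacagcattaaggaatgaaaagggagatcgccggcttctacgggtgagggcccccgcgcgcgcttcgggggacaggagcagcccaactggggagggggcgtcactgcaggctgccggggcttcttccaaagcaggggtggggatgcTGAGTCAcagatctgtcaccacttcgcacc
Ebi3, chr17:55952373-55952622, + strand: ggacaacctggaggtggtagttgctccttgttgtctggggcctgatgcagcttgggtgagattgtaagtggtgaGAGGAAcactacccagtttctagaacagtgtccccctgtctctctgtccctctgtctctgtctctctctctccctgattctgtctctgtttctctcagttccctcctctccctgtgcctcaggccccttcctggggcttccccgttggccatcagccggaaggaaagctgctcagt

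5 motifs were searched on both strands. GAGGAA, the core bound by PU.1 and other ETS factors, matched at 2 places in the Il12b window, at 219 to 214 and 143 to 138 bases before the start, the first of them on the opposite strand. It also matched at 2 places before the first Il15ra start, on the opposite strand, and at 1 place before the Ebi3 start, 176 to 171 bases upstream. This motif is common, with a match in 23.3% of the 32851 promoter windows. The AP-1 motif TGANTCA, found in 6.75% of the windows, matched 30 to 24 bases before the other Il15ra start. The core of the interferon-stimulated response element (GAAA, any 2 bases, then GAAA again, 2.98% of windows), the NF-kB motif (GGGA, any 2 bases, then TTCC, 1.21%) and the STAT motif TTCNNNGAA (7.02%) matched in none of the 6 windows of the 4 members, and the Il12a windows held none of the 5 motifs. A match or its absence describes these letters only, and no motif was at overlapping positions with another in the windows printed.

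Il12b (ENSMUSG00000004296) was the member that differed most between tissues. Its level in liver 1 to 4 was 17.1, 33.0, 31.3 and 38.3 TPM, in duodenum 1 to 4 it was 1.58, 2.24, 2.36 and 1.03 TPM, and in pancreas 1 to 4 it was 30.1, 32.2, 56.2 and 41.2 TPM. Every liver and pancreas library lay above every duodenum library, and liver and pancreas overlapped. Means were 29.9 ± 9.06 TPM in liver, 1.80 ± 0.622 TPM in duodenum and 39.9 ± 11.8 TPM in pancreas (SD, n = 4 each). Against duodenum, Il12b was higher in liver by 3.91 ± 0.34 on the log2 scale (adjusted p = 7.69e-06, edgeR quasi-likelihood test), or 15-fold, and in pancreas by 4.44 ± 0.35 (adjusted p = 1.62e-06), or 21.6-fold. Pancreas and liver did not pass the test for Il12b (log2 difference 0.53 ± 0.30, adjusted p = 0.708). Among all tested genes ordered by their log2 difference from the highest down, Il12b stood at place 61 in liver and at place 87 in pancreas against duodenum.

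The partners of p40 were under 1 TPM in every library. Il12a (ENSMUSG00000027776) was at 0.120, 0.104, 0.144 and 0.226 TPM in liver 1 to 4, at 0.0274, 0.240, 0.0898 and 0.109 TPM in duodenum 1 to 4, and at 0.239, 0.0464, 0.165 and 0.268 TPM in pancreas 1 to 4. The 3 tissues overlapped, and a library held between 5.82 and 85.3 estimated counts of Il12a, so that single values are imprecise. Il12a passed the test in no comparison, with 0.20 ± 0.62 in liver and 0.55 ± 0.62 in pancreas against duodenum (adjusted p = 0.923 and 0.737, edgeR). Il23a (ENSMUSG00000025383) was at 0.381 to 0.442 TPM in liver, 0.270 to 0.780 TPM in duodenum and 0.249 to 0.482 TPM in pancreas. Its differences from duodenum, -0.42 ± 0.31 in liver and -0.45 ± 0.31 in pancreas, had the opposite sign to those of Il12b and did not pass (adjusted p = 0.543 and 0.513). A transcript level of these chains does not give the amount of either cytokine.

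**Figure D1:**
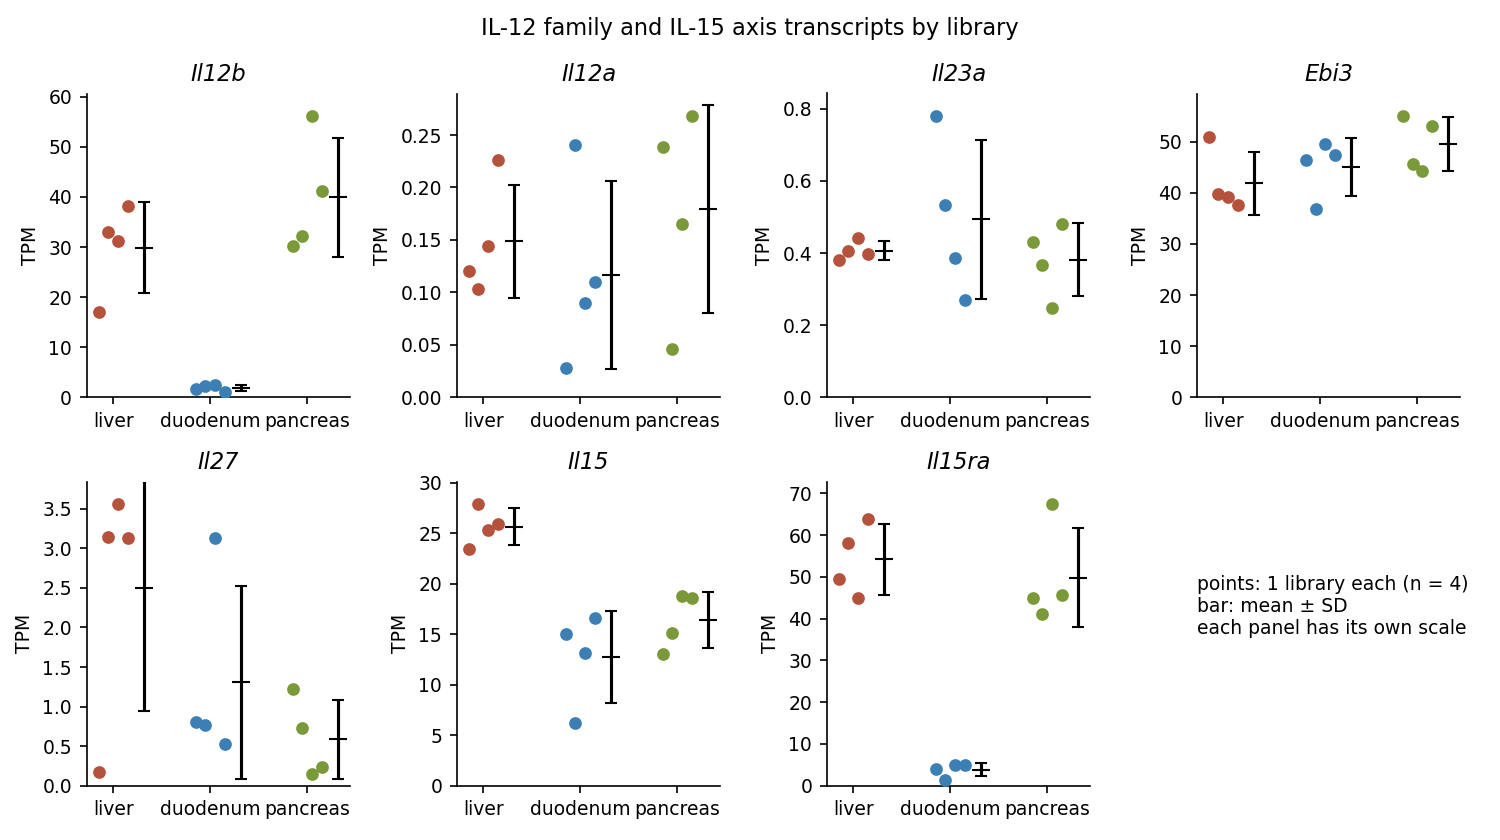
Level of each member in TPM, 1 panel per gene with its own scale starting at 0; each point is 1 library of liver, duodenum or pancreas, and the bar beside the points is the mean ± SD of 4 libraries. Il12b and Il15ra were low in all 4 duodenum libraries, at no more than 2.36 and 4.93 TPM, while the Ebi3 points of the 3 tissues overlap between 36.8 and 55.1 TPM.

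Within each library, p40 transcripts exceeded those of both partners, and by less in duodenum. The ratio of Il12b to Il12a, computed as (TPM + 0.1) over (TPM + 0.1), ran from 77.9 to 162 in liver, 5.38 to 13.2 in duodenum and 89.3 to 221 in pancreas. That of Il12b to Il23a ran from 35.7 to 77.1 in liver, 1.90 to 5.05 in duodenum and 57.1 to 161 in pancreas. Neither ratio overlapped between duodenum and the other tissues, and both overlapped between liver and pancreas. With 4 libraries against 4, the exact two-sided permutation test cannot go below p = 0.0286, which these 4 comparisons with duodenum each reached (adjusted p = 0.0571 over the 12 ratio tests). The log2 difference of the Il12b to Il12a ratio was 3.72 for liver and 4.04 for pancreas against duodenum, and that of Il12b to Il23a was 4.14 and 4.67. Because Il12a lies close to the added 0.1 TPM, its ratio moves with that value.

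Ebi3 (ENSMUSG00000003206), the chain shared by IL-27 and IL-35, was among the most abundant members in all tissues. It was at 51.0, 39.8, 39.2 and 37.6 TPM in liver 1 to 4, at 46.4, 36.8, 49.6 and 47.4 TPM in duodenum 1 to 4, and at 55.1, 45.7, 44.4 and 53.1 TPM in pancreas 1 to 4. The tissues overlapped, with liver 1 above the other 3 liver libraries and duodenum 2 below the other 3 of duodenum. The log2 differences were -0.27 ± 0.15 for liver and 0.05 ± 0.15 for pancreas against duodenum (adjusted p = 0.345 and 0.912, edgeR), and 0.33 ± 0.15 for pancreas against liver (adjusted p = 0.512). Without duodenum 2, Ebi3 was called lower in liver than in duodenum (-0.45, adjusted p = 0.0240), and over all 22 alternatives the adjusted p of this comparison ran from 0.0240 to 0.720.

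Il27 (ENSMUSG00000044701), which encodes the p28 chain, was the most scattered member. Liver 1 to 4 held 0.176, 3.14, 3.55 and 3.13 TPM, duodenum 1 to 4 held 0.806, 0.768, 3.13 and 0.532 TPM, and pancreas 1 to 4 held 1.22, 0.731, 0.149 and 0.235 TPM. Liver 1 was far below the other liver libraries and duodenum 3 far above the other duodenum libraries, so that all 3 tissues overlapped. The means of 2.50 ± 1.56, 1.31 ± 1.22 and 0.584 ± 0.496 TPM in liver, duodenum and pancreas (SD, n = 4 each) did not differ beyond this spread in any comparison. Il27 had the lowest adjusted p of the members between pancreas and liver, with a log2 difference of -2.09 ± 0.82 (adjusted p = 0.407, edgeR). The ratio of Ebi3 to Il27 ran from 10.7 to 185 in liver, 15.4 to 75.1 in duodenum and 41.8 to 179 in pancreas, with overlap in each comparison and a lowest adjusted p = 0.214 (exact permutation test). Liver 1 alone held the 185, since it had both the lowest Il27 and the highest Ebi3 of the liver libraries.

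Il15 (ENSMUSG00000031712), the cytokine gene of the other axis, was expressed in all libraries. Its level was 23.4, 27.8, 25.3 and 25.9 TPM in liver 1 to 4, 15.1, 6.20, 13.1 and 16.6 TPM in duodenum 1 to 4, and 13.1, 15.1, 18.8 and 18.5 TPM in pancreas 1 to 4. All liver libraries lay above all libraries of both other tissues, while duodenum and pancreas overlapped, and duodenum 2 was the lowest of the 12. The log2 difference of liver from duodenum was 0.83 ± 0.27, or 1.77-fold, and missed the threshold (adjusted p = 0.0893, edgeR). It passed under 4 of 22 alternatives, with library totals in place of TMM (1.02, adjusted p = 0.00725), with limma on log2(TPM + 1) and log2(TPM + 0.1) (1.03 and 1.09, adjusted p = 0.00615 and 0.0072), and without duodenum 2 and pancreas 1 together (0.52, adjusted p = 0.0400). Pancreas differed from duodenum by 0.29 ± 0.27 and from liver by -0.54 ± 0.27 (adjusted p = 0.671 and 0.618), neither of which passed.

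Il15ra (ENSMUSG00000023206), the chain that presents IL-15 to neighbouring lymphocytes, was low in duodenum. It was at 49.6, 58.2, 44.9 and 64.0 TPM in liver 1 to 4, at 4.09, 1.47, 4.84 and 4.93 TPM in duodenum 1 to 4, and at 44.9, 41.2, 67.4 and 45.6 TPM in pancreas 1 to 4. No duodenum library came near those of liver or pancreas, which overlapped each other, and duodenum 2 was again the lowest. Means were 54.2 ± 8.54 TPM in liver, 3.83 ± 1.62 TPM in duodenum and 49.8 ± 11.9 TPM in pancreas (SD, n = 4 each). The log2 difference from duodenum was 3.63 ± 0.36 in liver (adjusted p = 2.17e-05, edgeR), or 12.4-fold, and 3.62 ± 0.35 in pancreas (adjusted p = 1.38e-05), or 12.3-fold. Between pancreas and liver it was -0.01 ± 0.32 (adjusted p = 0.999).

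**Figure D2:**
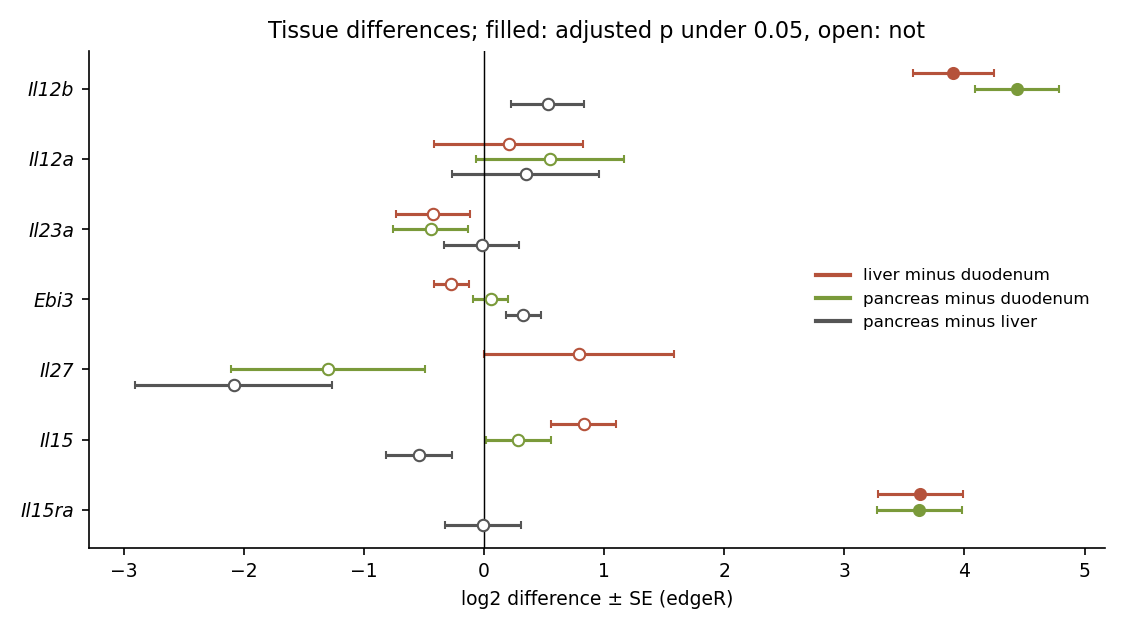
Log2 difference ± SE of each member in the 3 tissue comparisons, from edgeR over all 44624 tested genes; filled points have an adjusted p under 0.05. Il12b and Il15ra against duodenum are filled, from 3.62 to 4.44, and every other point is open.

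The receptor chain and its ligand thus stood in a different order in duodenum. The ratio of Il15ra to Il15 was 1.77 to 2.47 in liver, 0.25 to 0.375 in duodenum and 2.45 to 3.57 in pancreas. Receptor transcripts exceeded ligand transcripts in all 8 liver and pancreas libraries and fell short of them in all 4 duodenum libraries. The log2 difference of the ratio from duodenum was 2.82 for liver and 3.34 for pancreas, each at the smallest p that 4 against 4 allows (exact permutation p = 0.0286, adjusted p = 0.0571). Pancreas exceeded liver by 0.52 with a small overlap of the libraries (exact permutation p = 0.0571, adjusted p = 0.0980).

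**Figure D3:**
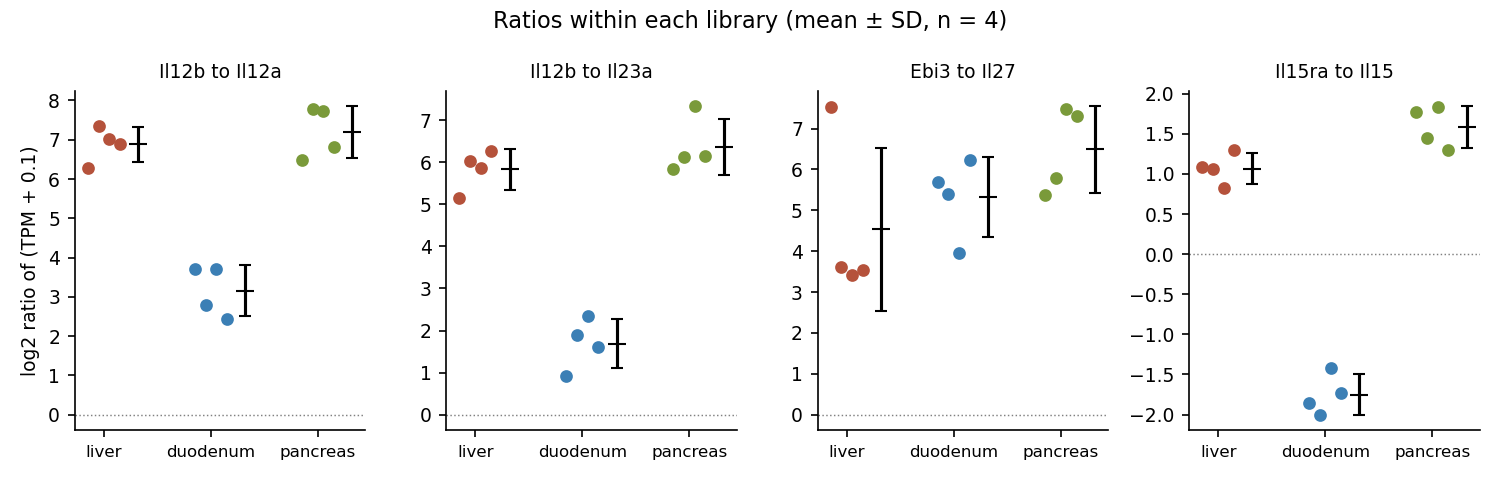
Log2 ratio of 2 members inside each library, computed on TPM + 0.1, by tissue; points are single libraries, bars are mean ± SD (n = 4), and the dotted line marks equal levels. The Il15ra to Il15 ratio lies below the dotted line in duodenum alone, and the Ebi3 to Il27 ratio of liver 1 stands at 7.53 while the other liver libraries lie between 3.43 and 3.62.

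In all, 2 of the 7 members, Il12b and Il15ra, were called higher in liver than in duodenum and 0 were lower, where 7.32% of all tested genes were called, 3.37% as higher in liver and 3.95% as higher in duodenum. The same 2 were called higher in pancreas than in duodenum and 0 lower, where 7.7% of tested genes were called, 3.76% as higher in pancreas and 3.94% as higher in duodenum. These comparisons share the duodenum libraries. Between pancreas and liver 0 of 7 members were called with edgeR, where 1.11% of tested genes were, 0.681% as higher in pancreas and 0.426% as higher in liver. Il27 and Ebi3 had an unadjusted p of 0.0234 and 0.0410 there, and DESeq2 and limma also called 0 members. TPM did not overlap between liver and duodenum for Il12b, Il15 and Il15ra, as for 15.6% of tested genes (11.2% with liver higher, as here), between pancreas and duodenum for Il12b and Il15ra (13.6%, or 8.21% with pancreas higher), and between pancreas and liver for Il15 (7.33%, or 4.76% with liver higher). The median log2 difference of the 7 members was 0.79, 0.29 and -0.01 for liver against duodenum, pancreas against duodenum and pancreas against liver, and that of all tested genes was 0.10, 0.09 and -0.01. The split of the calls over all genes moved with the scaling of the libraries. Between liver and duodenum it was 1502 higher and 1763 lower in liver, 1078 and 1976 with DESeq2 size factors, and 2642 and 1520 with library totals, which also moved the median of all genes to 0.25. The split was 304 higher and 190 lower in pancreas against liver, and 392 and 428 with library totals. The differences of Il12b and Il15ra from duodenum kept their direction and call under both scalings.

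Il12b and Il15ra remained called against duodenum in liver and in pancreas under all 22 alternatives, with a highest adjusted p of 0.000812. The cDC2, plasma cell and immediate-early sums given above were higher in duodenum, where these 2 genes were low. Acinar markers summed to 873 to 5285 TPM in pancreas and at most 10.6 TPM elsewhere, and hepatocyte markers to 33.4 to 48.3 TPM in liver and at most 5.42 TPM elsewhere. Of 12 macrophage markers, which summed to 174 to 210 TPM in liver, 185 to 283 TPM in duodenum and 182 to 210 TPM in pancreas, 3 were higher and 2 lower in liver and 2 higher and 1 lower in pancreas than in duodenum. Timd4, of tissue macrophages, was higher by 1.95 in liver and 3.99 in pancreas, and Csf1r, the receptor of a macrophage growth factor, by 1.80 and 1.07. Adgre1 went the other way, at -2.27 in liver and -1.44 in pancreas. Cd68, the largest part of the sum, was at -0.68 and -0.53, the last not called. The part of these other cells and of handling in the Il12b and Il15ra differences was not tested. Without liver 2, pancreas 3 and pancreas 4, the 3 libraries of those tissues with the highest plasma cell marker sums, Il12b was higher by 3.83 in liver and 3.96 in pancreas, and Il15ra by 3.55 and 3.28. Without duodenum 2 and pancreas 1, Il12b was higher by 3.93 and 4.60 and Il15ra by 3.29 and 3.36.

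The make-up of the set changed with tissue. Summed over the 7 members, the level was 142 to 170 TPM in liver, 48.2 to 73.5 TPM in duodenum and 135 to 187 TPM in pancreas. Ebi3 made up 66.9 to 76.2% of the sum in duodenum, 22.2 to 36.0% in liver and 23.7 to 38.0% in pancreas. Il15ra made up 31.0 to 37.7% in liver, 3.06 to 6.96% in duodenum and 28.6 to 36.0% in pancreas, and Il12b 12 to 22.6%, 1.45 to 4.66% and 20.8 to 30%. By mean TPM the order in liver and in pancreas was Il15ra, Ebi3, Il12b, Il15, Il27, Il23a and Il12a, and in duodenum it was Ebi3, Il15, Il15ra, Il12b, Il27, Il23a and Il12a. Several neighbours in these orders did not separate over the 4 libraries, such as Il15ra and Ebi3 in pancreas, and Il27 and Il23a in all 3 tissues.

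Il12b and Il15ra were set against Ccr7, the chemokine receptor that guides migrating DCs into lymph vessels and nodes. Ccr7 was at 77.7 to 161 TPM in liver, 4.32 to 16.3 TPM in duodenum and 89.3 to 194 TPM in pancreas, and no duodenum library reached another tissue. The ratio of Il12b to Ccr7 was 0.205 to 0.276 in liver, 0.135 to 0.372 in duodenum and 0.278 to 0.362 in pancreas. Its log2 difference from duodenum was 0.17 in liver and 0.60 in pancreas (exact permutation p = 0.657 and 0.171). All pancreas libraries exceeded all liver libraries in this ratio, by 0.43 (exact permutation p = 0.0286, adjusted p = 0.0857 over 9 tests). That was the lowest adjusted p of the 9 tests, so a miss among them cannot be set against the edgeR calls of Il12b and Il15ra. The ratio of Il15ra to Ccr7 differed from duodenum by 0.10 in liver and -0.04 in pancreas (exact permutation p = 0.886 and 1.0). This ratio was 0.362 to 0.639 in liver and 0.347 to 0.462 in pancreas. It was at most 0.338 in duodenum 1, 2 and 3, below every library of both other tissues, but 1.14 in duodenum 4. The small differences thus depended on duodenum 4, and without it they were 0.59 in liver and 0.45 in pancreas. A p that misses the threshold does not show that the ratios were equal. The ratio of Il15 to Ccr7 went the other way, at 0.803 to 3.77 in duodenum, 0.168 to 0.302 in liver and 0.0973 to 0.170 in pancreas, with log2 differences from duodenum of -2.72 and -3.38 (exact permutation p = 0.0286 and adjusted p = 0.0857 each).

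Inside the tissues, after subtracting each tissue's mean, 3 of the 21 pairs of members had r over 0.6, all among Ebi3, Il15 and Il15ra. The points of these correlations share library and depth, and are given as a description over 12 libraries. Il15 and Il15ra had r = 0.916, which fell to 0.642 without duodenum 2, the library lowest in both, and to 0.583 without pancreas 1 as well. Il12b and Ccr7 had r = 0.770, which was 0.909 without duodenum 2 and 0.576 without liver 1 and duodenum 4. Il12b and Il15ra, the 2 members called between tissues, had r = 0.0913, or 0.600 without duodenum 2. Ebi3 had r = 0.641 with Il15 and 0.629 with Il15ra, which were -0.130 and -0.234 without duodenum 2. Il12b with Il12a had r = 0.238 and Ebi3 with Il27 had r = -0.310.

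**Figure D4:**
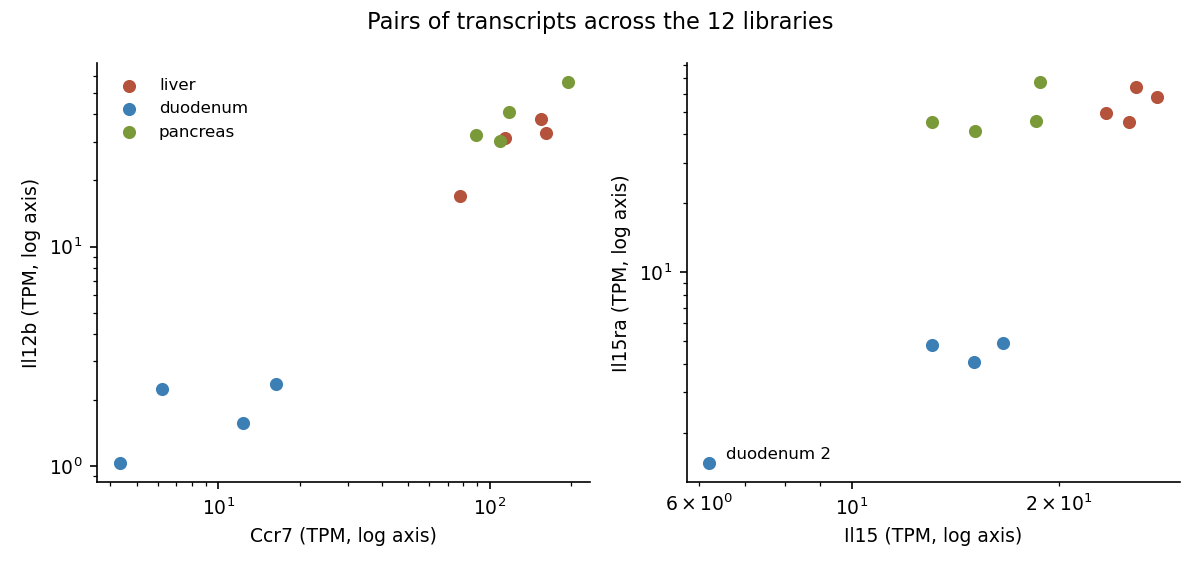
Il12b against Ccr7 and Il15ra against Il15, in TPM on log axes, with 1 point per library coloured by tissue. In the left panel the duodenum libraries lie at the lower left, at 1.03 to 2.36 TPM of Il12b and 4.32 to 16.3 TPM of Ccr7, and in the right panel they overlap pancreas along Il15 but lie below it along Il15ra, with duodenum 2 lowest on both axes.

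The genes whose pattern was most like that of a member were found by Pearson's r of log2 CPM over the 12 libraries among 8421 genes. For Il12b they were Cacnb3 (r = 0.990), a calcium channel subunit, Adcy6 (0.986), an adenylate cyclase, Cd63 (0.984), a tetraspanin of endosomes, Mreg (0.984), melanoregulin, and Fscn1 (0.982), the actin bundler of mature DCs. For Il15ra they were Stxbp3 (0.992), a syntaxin-binding protein, Plpp2 (0.991), a lipid phosphatase, Fcgrt (0.985), the neonatal Fc receptor, Grk3 (0.985), a receptor kinase, and Specc1 (0.984). Those genes all had a lower mean in duodenum than in liver and pancreas, though not all were scarce there. Plpp2 had a mean of 1.53 TPM in duodenum, 16.5 TPM in liver and 15.2 TPM in pancreas. Fcgrt had means of 30.9, 103 and 96.0 TPM in the same order. For Il15 they were Khdc4 (0.934), Flt3 (0.934), the growth factor receptor of DCs, Ankhd1 (0.934), Zbp1 (0.928), an innate sensor of nucleic acids, and H2-Q10 (0.925). Their log2 differences between liver and duodenum ran from 0.38 for Ankhd1 to 1.29 for Zbp1, beside 0.83 for Il15.

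The receptors of these cytokines were mostly scarce in the sorted cells. Of 7 chains, 1 was called higher in liver than in duodenum and 2 in pancreas than in duodenum, with 0 lower in either. The median log2 differences of the list were 0.09, 0.65 and 0.19 for liver against duodenum, pancreas against duodenum and pancreas against liver. Il12rb2, the chain that makes the IL-12 receptor signal, was at 2.60, 1.03, 1.24 and 1.27 TPM in liver 1 to 4, at 0.128, 0.149, 0.0980 and 0.0783 TPM in duodenum 1 to 4, and at 2.90, 3.45, 4.40 and 2.76 TPM in pancreas 1 to 4. Duodenum overlapped neither other tissue, and pancreas lay above liver in every library. Il12rb2 was higher by 3.60 ± 0.33 in liver (adjusted p = 1.20e-05, edgeR) and 4.86 ± 0.35 in pancreas (adjusted p = 7.78e-07) than in duodenum. Between pancreas and liver its difference of 1.25 ± 0.30 missed the threshold (adjusted p = 0.0674), and passed without liver 1 and under 3 other alternatives, with a range of 0.00206 to 0.580. T cell markers, as a source of lymphocyte transcripts, summed to 7.76 to 10.7 TPM over all libraries, and NK cell and innate lymphocyte markers to 19.0 to 26.2 TPM in liver, 22.8 to 32.5 in duodenum and 41.5 to 47.8 in pancreas. Of these 10 NK cell and innate lymphocyte markers, 0 were higher and 1 lower in liver than in duodenum. In pancreas 1 was higher and 0 lower than in duodenum. Klrd1, which made up most of the NK sum, had means of 16.9, 26.4 and 35.3 TPM in liver, duodenum and pancreas. Il7r, the marker called higher in pancreas (2.36 ± 0.45), had means of 3.44, 1.26 and 6.78 TPM, the same order as Il12rb2. Ncr1, a marker of NK cells and some other innate lymphocytes, had means of 0.0714, 0.105 and 0.0736 TPM. The part of such cells in the Il12rb2 difference was not tested.

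Il27ra, the specific chain of the IL-27 receptor, was higher in pancreas, at 2.11 ± 0.669 TPM, than in duodenum, at 0.367 ± 0.147 TPM (SD, n = 4 each, log2 difference 2.43 ± 0.50, adjusted p = 0.00660, edgeR). It was also called higher in pancreas than in liver (2.34 ± 0.49, adjusted p = 0.0339), a call that ended without any 1 of liver 1, 2 or 4 or pancreas 1, 2 or 4 (adjusted p up to 0.167). The chains that receive IL-15 on lymphocytes did not differ beyond their spread. Il2rb, the beta chain of the IL-2 and IL-15 receptors, was at 0.164 ± 0.0609, 0.249 ± 0.101 and 0.159 ± 0.0828 TPM, and Il2rg, the common gamma chain, at 14.6 ± 2.03, 14.5 ± 5.69 and 15.4 ± 5.92 TPM in liver, duodenum and pancreas (SD, n = 4 each). Neither passed in any comparison.

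Among 8 genes of JAK and STAT signalling, 1 was higher and 0 lower in liver than in duodenum, 3 were higher and 1 lower in pancreas than in duodenum, and 0 were called between pancreas and liver with edgeR and TMM factors or with DESeq2, where 2 had an unadjusted p under 0.05. Stat3 was called lower in pancreas than in liver with library totals in edgeR (-0.51, adjusted p = 0.0252) and with limma (0.0232 and 0.0251). With DESeq2 size factors in place of TMM, 0 were higher than in duodenum in liver or in pancreas. The medians of the list were 0.09, -0.01 and 0.0046 in the same order. Stat4, the transcription factor that IL-12 activates, was higher than in duodenum by 1.44 ± 0.39 in liver and 1.44 ± 0.39 in pancreas (adjusted p = 0.0393 and 0.0379, edgeR). The call in liver ended without any library other than liver 3, duodenum 3, pancreas 2 or pancreas 3, and that in pancreas without any other than duodenum 3 or pancreas 2, with adjusted p up to 0.119 and 0.511 over all alternatives. In pancreas against duodenum, Stat5a, which acts below the IL-15 receptor, was higher by 0.70 ± 0.17 (adjusted p = 0.0180), and Tyk2, a kinase of the IL-12 receptor, by 0.56 ± 0.12 (adjusted p = 0.00835). The Stat5a call ended without duodenum 1 or pancreas 3 and the Tyk2 call without pancreas 3, with adjusted p up to 0.249 and 0.201 over all alternatives. Stat3 was lower in pancreas than in duodenum by -0.72 ± 0.16 (adjusted p = 0.0119).

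Of 16 transcription factors known to act on these genes, 3 were higher and 2 lower in liver than in duodenum, 1 was higher and 3 lower in pancreas than in duodenum, and 1 was higher and 1 lower in pancreas than in liver. The medians were -0.09, -0.07 and -0.01. Irf8 and Batf3, which cDC1 need, passed in no comparison with edgeR and all libraries, at 642 ± 15.7, 634 ± 77.2 and 561 ± 29.6 TPM for Irf8 and 174 ± 13.5, 192 ± 18.7 and 146 ± 19.8 TPM for Batf3 in liver, duodenum and pancreas (SD, n = 4 each). Without duodenum 2, Irf8 was called higher in duodenum than in either other tissue (lowest adjusted p = 0.0279 and 0.00833 over the alternatives), and Batf3 was called lower in pancreas than in duodenum with DESeq2 (adjusted p = 0.0219), with limma on log2(TPM + 1) and log2(TPM + 0.1) (0.0167 and 0.0168), without pancreas 3 (0.0113) and without liver 2, pancreas 3 and pancreas 4 together (0.0447). Irf1, a factor known to bind the Il12a and Il15 promoters, was at 63.8 to 75.5 TPM in liver, 45.2 to 59.6 TPM in duodenum and 28.4 to 42.6 TPM in pancreas, with no overlap between any tissues. It was lower in pancreas than in liver by -0.98 ± 0.17 (adjusted p = 0.00957, edgeR) and than in duodenum by -0.70 ± 0.17 (adjusted p = 0.0190), the last until duodenum 1 or pancreas 2 was left out (adjusted p up to 0.0695).

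Relb, an NF-kB subunit of mature DCs, was higher than in duodenum by 0.88 ± 0.25 in liver (adjusted p = 0.0452, edgeR) and 1.09 ± 0.25 in pancreas (adjusted p = 0.0134). The call in liver ended without any single library other than duodenum 3, pancreas 2 or pancreas 3 (adjusted p up to 0.144 over all alternatives), and that in pancreas without pancreas 3 (up to 0.281). Irf7, an interferon-induced factor, was higher in liver than in duodenum by 1.72 ± 0.32 (adjusted p = 0.00421), and Irf3 by 0.42 ± 0.12 (adjusted p = 0.0485) until any of the 12 libraries was left out (up to 0.231). Irf4, which marks cDC2 and mature DCs, was lower than in duodenum in liver (-2.48 ± 0.30) and in pancreas (-1.98 ± 0.30), with adjusted p = 0.000143 and 0.000706. Bhlhe40, a repressor of Il10, was lower in liver than in duodenum (-2.73 ± 0.30, adjusted p = 5.12e-05) and higher in pancreas than in liver (1.78 ± 0.29, adjusted p = 0.00534). Its difference of -0.95 ± 0.28 between pancreas and duodenum missed the threshold (adjusted p = 0.0537), but passed without liver 1, 2 or 3, duodenum 2 or pancreas 3 and under 8 other alternatives (down to 0.00753). Cebpb, a factor of myeloid cells, was lower in pancreas than it was in duodenum (-2.12 ± 0.42, adjusted p = 0.00507).

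**Figure D5:**
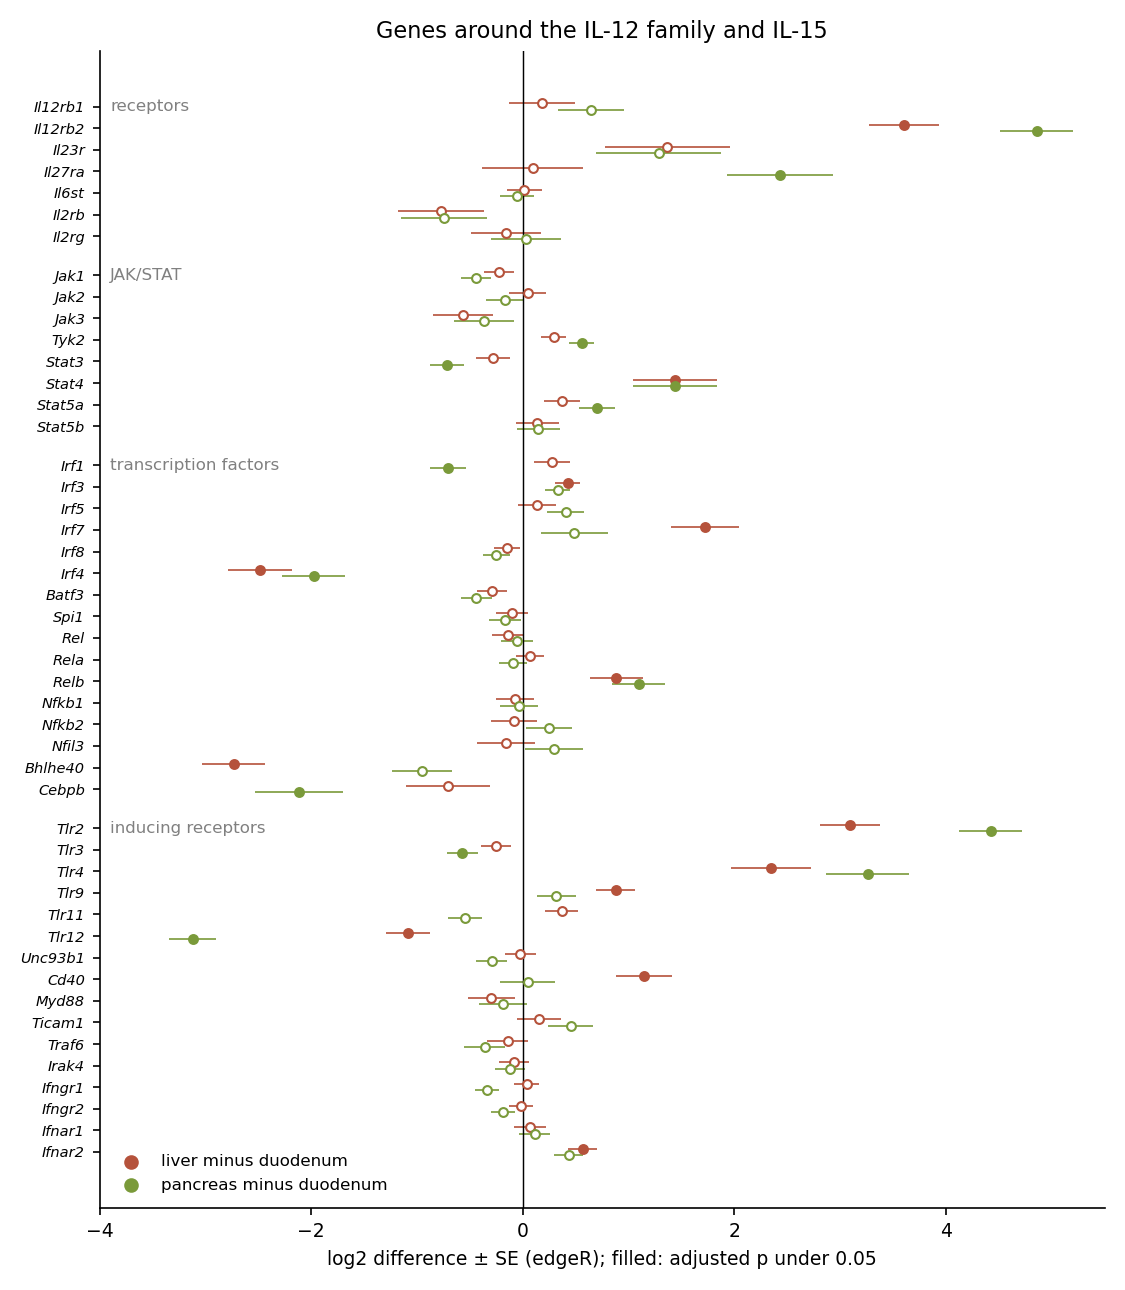
Log2 difference ± SE from duodenum for the receptors, JAK and STAT genes, transcription factors and inducing receptors, in liver and in pancreas; filled points have an adjusted p under 0.05. Il12rb2, Tlr2 and Tlr4 lie to the right in both tissues, up to 4.86, and Tlr12 and Irf4 to the left.

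Receptors and adaptors that induce IL-12 and IL-15 did not move as a block. Of 16, 5 were higher and 1 lower in liver than in duodenum, 2 were higher and 2 lower in pancreas than in duodenum, and 1 was higher and 2 lower in pancreas than in liver. The last count was 7 lower with library totals in place of TMM. The medians were 0.05, -0.15 and -0.20. Tlr2, a sensor of bacterial lipoproteins, was at 5.43 ± 0.793, 0.564 ± 0.193 and 12.8 ± 2.05 TPM in liver, duodenum and pancreas (SD, n = 4 each), higher than in duodenum by 3.10 ± 0.28 and 4.42 ± 0.30 (adjusted p = 1.17e-05 and 4.97e-07, edgeR). Its difference of 1.33 ± 0.26 between pancreas and liver (adjusted p = 0.0234) ended without any 1 of liver 1, 2 or 4 or pancreas 2, 3 or 4 (adjusted p up to 0.335 over all alternatives). Tlr4, the sensor of lipopolysaccharide, was higher than in duodenum by 2.34 ± 0.38 in liver and 3.26 ± 0.39 in pancreas (adjusted p = 0.00134 and 9.10e-05). Tlr12, a sensor of profilin that can trigger IL-12 in mouse DCs, ran the other way, at 38.2 ± 4.06, 72.6 ± 9.21 and 8.77 ± 2.45 TPM. Its log2 difference was -1.09 ± 0.21 in liver and -3.12 ± 0.22 in pancreas against duodenum and -2.03 ± 0.21 between pancreas and liver, with adjusted p = 0.00453, 7.19e-07 and 0.000108.

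Cd40, through which helper T cells raise IL-12 in DCs, was at 38.6 to 63.2 TPM in liver, 13.8 to 28.7 TPM in duodenum and 16.9 to 30.2 TPM in pancreas. It was higher in liver than in duodenum by 1.15 ± 0.26 (adjusted p = 0.0156, edgeR), until liver 2, liver 3 or duodenum 4 was left out (adjusted p up to 0.0643 over all alternatives). In pancreas it differed from duodenum by 0.05 ± 0.26 (adjusted p = 0.963). The part of Cd40 in the Il12b differences was not tested. Between pancreas and liver the Cd40 difference of -1.10 ± 0.26 missed the threshold (adjusted p = 0.0704), but passed without duodenum 2 or pancreas 3 and under 6 other alternatives (down to 0.00555). Also higher in liver than in duodenum were Tlr9, a sensor of bacterial DNA (0.88 ± 0.18), and Ifnar2, an interferon receptor chain (0.57 ± 0.14), the last until liver 1, 2 or 3, duodenum 1 or pancreas 4 was left out (adjusted p up to 0.130). Tlr3, a sensor of double-stranded RNA, was lower in pancreas than in duodenum (-0.57 ± 0.14) until duodenum 1, 3 or 4 or pancreas 2 or 4 was left out (up to 0.104), and Tlr11, which pairs with Tlr12, lower in pancreas than in liver (-0.91 ± 0.16, adjusted p = 0.00946).

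Of 12 genes that restrain these cytokines or their signals, 1 was higher and 3 lower in liver than in duodenum, with the same counts in pancreas against duodenum, and 1 was higher and 1 lower in pancreas than in liver. The medians were -0.16, -0.26 and 0.09. Zfp36, which speeds the decay of cytokine mRNAs, was at 13.4 ± 0.573, 81.7 ± 4.2 and 21.7 ± 3.92 TPM in liver, duodenum and pancreas (SD, n = 4 each). Against duodenum it was lower by -2.77 ± 0.15 in liver and -1.98 ± 0.15 in pancreas (adjusted p = 1.26e-07 and 1.11e-06, edgeR). Zfp36 is itself in the list of immediate-early and heat-shock genes, whose sum was also highest in duodenum and whose part was not tested. Socs3, a brake on STAT3 signals, was lower by -1.69 ± 0.30 and -1.16 ± 0.30 (adjusted p = 0.00278 and 0.0249), in pancreas until duodenum 1 or 3 or pancreas 1, 2 or 4 was left out (up to 0.0764). Socs1, a brake on interferon and IL-15 signals, was lower in pancreas than in duodenum by -1.03 ± 0.25 (adjusted p = 0.0170) until pancreas 2 was left out (up to 0.0581), and than in liver by -1.20 ± 0.25 (adjusted p = 0.0271) until liver 1, 2 or 4 or pancreas 1, 2 or 4 was (up to 0.0957). Nfkbia, an inhibitor of NF-kB, was lower in liver than in duodenum (-0.64 ± 0.11), and Tgfbr1, a TGF-beta receptor, was higher than in duodenum in pancreas (0.73 ± 0.15) and in liver (0.59 ± 0.15), there until liver 1, 2 or 3, duodenum 2 or 4 or pancreas 4 was left out (up to 0.141). Zfp36 was higher in pancreas than in liver (0.79 ± 0.14, adjusted p = 0.0124) until liver 1 or liver 2 was left out (up to 0.441 over all alternatives). Il10, which restrains IL-12, was at 0.161 ± 0.230, 0.0910 ± 0.0364 and 0.0763 ± 0.0251 TPM and passed in no comparison.

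Interferon response genes were checked because interferons raise Il15 and Il15ra. Of 17, 3 were higher and 0 lower in liver than in duodenum, 1 was higher and 1 lower in pancreas than in duodenum, and 0 were called between pancreas and liver with edgeR and TMM factors over all libraries, where 4 had an unadjusted p under 0.05, DESeq2 called 1 and limma 2. Irf7 was called lower in pancreas than in liver with DESeq2 (adjusted p = 0.0163), with library totals in edgeR (0.0137), in the edgeR fit to the 2 tissues alone (0.00133) and without duodenum 2 (0.00151). With library totals in place of TMM, 8 were higher in liver than in duodenum. Mx1, an antiviral GTPase, was at 45.3 ± 2.86 TPM in liver, 7.82 ± 1.33 TPM in duodenum and 34.1 ± 3.17 TPM in pancreas (SD, n = 4 each). Ifi44 was higher in liver than in duodenum by 2.56 ± 0.58 (adjusted p = 0.0134, edgeR), beside Irf7 above. Bst2, an antiviral membrane protein, was lower in pancreas than it was in duodenum (-0.79 ± 0.17, adjusted p = 0.00924). The median log2 difference of the list was 0.57, 0.43 and -0.34 for liver against duodenum, pancreas against duodenum and pancreas against liver, beside 0.10, 0.09 and -0.01 over all tested genes. The summed level of the list was 425 to 485 TPM in liver, 260.0 to 361 TPM in duodenum and 283 to 367 TPM in pancreas. Bst2 alone had means of 109, 129 and 77.3 TPM in liver, duodenum and pancreas, so that the sum leans on it. The part of interferon in the levels of Il15 and Il15ra was not tested.

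Most genes of mature DCs were higher in the tissues where Il12b and Il15ra were. Of 20, 15 were higher and 0 lower in liver than in duodenum, 14 were higher and 1 lower in pancreas than in duodenum, and 0 were higher and 2 lower in pancreas than in liver. The medians were 1.49, 1.97 and 0.20. This list was drawn with these results known, holds Ccr7, and is not independent evidence of its direction. Cd80, Cd86 and Cd83 of this list were not called against duodenum with edgeR and all libraries. They were at -0.11, -0.16 and -0.10 in liver and at -0.14, -0.19 and 0.58 in pancreas. Without duodenum 2, Cd86 was called lower in both tissues, and Cd83 was called higher in pancreas without duodenum 1 and with limma. Ccl5, a chemokine for T cells, had means of 383 ± 160, 4.02 ± 4.48 and 896 ± 373 TPM, and Fscn1 of 49.7 ± 15.5, 3.98 ± 1.11 and 48.9 ± 23.1 TPM in liver, duodenum and pancreas (SD, n = 4 each). Socs2 was higher in liver than in duodenum by 3.43 ± 0.41 (adjusted p = 0.000110, edgeR), and Tnfrsf4 (OX40) in pancreas than in duodenum by 3.64 ± 0.32 (adjusted p = 5.10e-06). The 2 that were lower in pancreas than in liver were genes of PD-1 ligands, Pdcd1lg2 (-2.21 ± 0.34, adjusted p = 0.00420) and Cd274 (-1.54 ± 0.34, adjusted p = 0.0445), the last until any single library other than duodenum 2 or 3 or pancreas 3 was left out (up to 0.153). Cd274 was also the 1 gene of the list that pancreas had lower than duodenum (-1.21 ± 0.34, adjusted p = 0.0421), until duodenum 1 or 3 or pancreas 1, 2 or 4 was left out (up to 0.149).

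Other cytokine genes of DCs did not all go the way of Il12b. Of 14, 2 were higher and 2 lower in liver than in duodenum, 2 were higher and 1 lower in pancreas than in duodenum, and 1 was higher and 0 lower in pancreas than in liver. The medians were 0.17, -0.11 and 0.08. Il18, which acts with IL-12 on interferon-gamma, was at 49.8 ± 6.18 TPM in liver, 4.83 ± 1.48 TPM in duodenum and 34.9 ± 4.25 TPM in pancreas (SD, n = 4 each), higher than in duodenum by 3.21 ± 0.22 and 2.78 ± 0.21 (adjusted p = 7.49e-07 and 1.27e-06, edgeR). Il7, a lymphocyte survival factor, was higher by 2.47 ± 0.54 in liver and 1.93 ± 0.53 in pancreas (adjusted p = 0.0110 and 0.0380), in pancreas until liver 2, duodenum 1, 3 or 4 or pancreas 1 or 3 was left out (up to 0.191). Il1b, an inflammatory cytokine, was lower in liver than in duodenum (-2.27 ± 0.45, adjusted p = 0.00555) and higher in pancreas than in liver (2.25 ± 0.45, adjusted p = 0.0222), the last until any liver library or pancreas 3 or 4 was left out (up to 0.343). Il1a, a related cytokine, was lower than in duodenum in both liver and pancreas (-2.23 ± 0.55 and -2.06 ± 0.54, adjusted p = 0.0224 and 0.0312), until liver 2, 3 or 4 or duodenum 1 was left out for liver (up to 0.0646), and duodenum 1, 2 or 4 or pancreas 1, 2 or 3 for pancreas (up to 0.140).

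Leaving out liver 2, pancreas 3 and pancreas 4 together, which had the highest plasma cell marker sums of liver and pancreas, ended some further calls. In liver against duodenum they were those of Tlr9 (adjusted p = 0.0556, edgeR) and Ifi44 (just above the threshold). In pancreas against duodenum they were Cebpb (0.105) and Tgfbr1 (0.118), and in pancreas against liver Bhlhe40 (0.103), Tlr11 (0.402) and Pdcd1lg2 (0.135), which left 177 genes of all those tested called there. The mature DC counts were then 12 higher and 0 lower in liver and 11 and 0 in pancreas against duodenum, and the receptor counts were 1 and 2 higher as before, with Il12rb2 called in both. Those of the inducing receptors were 2 higher and 1 lower in each, and those of JAK and STAT genes 1 higher in liver and 0 higher and 1 lower in pancreas. Without duodenum 2 and pancreas 1 together, the mature DC counts were 14 higher and 1 lower in each of these comparisons, and the inducing receptors 5 higher and 3 lower in liver and 2 higher and 5 lower in pancreas.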

How the data were processed

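Bulk RNA-seq of sorted CD103+ CD11b-negative DCs was analysed in 12 libraries, 4 each of liver, duodenum and pancreas, each a pool of mice. For each library the authors deposited estimated counts per gene, which need not be whole, and a second table in which the authors deposited TPM, normalized for length and library size. Reads were quantified with kallisto on GRCm39, per the submitters' processing notes, and the index, annotation and strand setting were not given in the sources used here. For each gene, the ratio of count to TPM, after a factor per library, deviated by at most 1.1e-09 (log2) between libraries over 12632 genes, so that the counts carry the TPM scale and no separate length correction per library. 0 value columns lacked a sample.

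Counts were rounded and filtered with filterByExpr (minimum count 10), which left 44624 of 55401 genes. edgeR 4.0.16 (R 4.3.3) was used with TMM factors and a robust quasi-likelihood fit to all 12 libraries with tissue as the one factor and no replicate block. Adjusted p-values are Benjamini-Hochberg values over all tested genes, called under 0.05, and the SE is the size of the log2 difference over the square root of F. Ratios of members were taken on TPM with a pseudocount of 0.1 and compared by exact two-sided permutation tests, adjusted over 12 tests of member pairs and 9 with Ccr7. Levels are mean ± SD of TPM. Each library totalled 220897606 to 356072585 estimated counts, and counting error weighs most on Il12a, Il23a and other scarce genes. These totals do not give the number of RNA molecules sampled, so the counting error of the other genes is not known.

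The members and the 22 gene lists (229 symbols) were chosen with earlier results of these data known, and 1 further gene is not reported here. Named list genes are up to 4 called genes per list and comparison with the largest log2 difference and at least 1 CPM on average in the tissue where they were higher, with Il12rb2, Il2rb, Il2rg, Irf1, Irf8, Batf3, Relb, Cd40, Stat4, Ccr7 and Il10 named throughout, and the 5 genes most like a member among those of at least 10 CPM. Irf3, Tlr9, Ifnar2, Klrd1, Il7r, Ncr1, Cd80, Cd86 and Cd83 were outside that rule and were chosen after their values were seen. Promoter windows came from RefSeq on GRCm38.p6, a different build from that of the counts, and were searched as text. The tests were tried on simulated data first. Alternatives were library totals or DESeq2 size factors in edgeR, no filter, a fit to the 2 tissues compared, a replicate block, DESeq2 1.42.0, limma 3.58.1 on log2(TPM + 1) and log2(TPM + 0.1), a pseudocount of 1 for ratios, and each library left out. The fits without liver 2, pancreas 3 and pancreas 4 and without duodenum 2 and pancreas 1 were chosen from earlier results of these data. The libraries left out of the correlations inside tissues and the alternatives for list genes were chosen after seeing the data. Python was used for ratios and figures.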

Additional observations from a re-analysis of the deposited data

Results flagged for a closer look

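In 42 groups of 4 libraries (levels and ratios of members by tissue), the highest or lowest library was set against the others by Dixon's ratio of its gap to the range of the group, and 5 passed its critical value, where chance passes about 5% of groups. For Il27, the p28 chain of IL-27, liver 1 held 0.176 TPM while the other liver libraries held 3.13 to 3.55 TPM, and duodenum 3 held 3.13 TPM while the others of duodenum held 0.532 to 0.806 TPM. For Ebi3, its partner chain, liver 1 held 51.0 TPM and the others 37.6 to 39.8 TPM. The log2 ratio of Ebi3 to Il27 was 7.53 in liver 1 and 3.43 to 3.62 in the other liver libraries, a value that rests on the same readings. For Il15ra, pancreas 3 held 67.4 TPM and the other pancreas libraries 41.2 to 45.6 TPM.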

How the results depend on the processing

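Il12b and Il15ra kept their direction and their calls against duodenum under all 22 alternatives. The number of genes called between liver and duodenum (3265) was 5133 with DESeq2, 4906 with limma on log2(TPM + 1), 2069 without liver 2, pancreas 3 and pancreas 4, and 4913 without duodenum 2 and pancreas 1 together, where 4 members were called, and 2397 to 4807 with single libraries left out. Between pancreas and duodenum (3437) it was 1712 without liver 2, pancreas 3 and pancreas 4, and 2596 to 4716 with single libraries left out. Between pancreas and liver (494) it was 820 with library totals, 1171 with DESeq2, 975 and 951 with limma on log2(TPM + 1) and log2(TPM + 0.1), 177 without those 3 libraries, and 343 to 749 with single libraries left out, highest without duodenum 2. The cause was not tested.

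Differences that changed sign were small and not called. Ebi3 between pancreas and duodenum was -0.043 with DESeq2 size factors, -0.043 with DESeq2, -0.026 without liver 2, pancreas 3 and pancreas 4, -0.13 without duodenum 2 and pancreas 1, and -0.12 to 0.11 with single libraries left out. Il15 between pancreas and duodenum was -0.049 without liver 2, pancreas 3 and pancreas 4, and -0.022 to 0.42 with single libraries left out. Between pancreas and liver, Il12a was -0.23 without liver 2, pancreas 3 and pancreas 4, Il15ra was 0.074 without duodenum 2 and pancreas 1 and -0.25 to 0.073 with single libraries left out, and Il23a was -0.15 to 0.12. Il12a between liver and duodenum was -0.11 to 0.69. With a pseudocount of 1, the log2 ratio to Ccr7 differed between liver and duodenum by -0.23 for Il12b and -0.083 for Il15ra. With single libraries left out, these were -0.038 to 0.45 and -0.14 to 0.59, and the Il15ra to Ccr7 ratio was -0.28 to 0.45 for pancreas against duodenum and -0.23 to 0.040 for pancreas against liver.

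With single libraries left out, some ratio tests reached an adjusted p of 0.0490 (exact permutation test), since the number of regroupings and the other p-values changed. The log2 differences were then 3.48 to 3.92 and 3.8 to 4.29 for Il12b to Il12a, 3.88 to 4.36 and 4.34 to 4.88 for Il12b to Il23a, and 2.73 to 2.93 and 3.25 to 3.45 for Il15ra to Il15, each for liver and pancreas against duodenum, and 0.44 to 0.62 for Il15ra to Il15 and 1.59 to 2.96 for Ebi3 to Il27 between pancreas and liver.

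The labels do not say whether same-numbered libraries shared mice or days. Same-numbered libraries of 2 tissues had correlations of their deviations from -0.146 to 0.109 over 12 pairs, with 1 over 0.1. These values gave no sign of pairing but cannot exclude it. With the replicate number as a block, 2931, 3125 and 436 genes were called, and the calls of the members were the same, with Il12b at 3.89 and 4.39 and Il15ra at 3.75 and 3.68 in liver and pancreas against duodenum. Paired sign flips of the ratios gave a lowest adjusted p of 0.25 (exact permutation test). With 4 pairs such flips cannot go under 0.05 whatever the data, so this result does not weigh against the ratio differences. Depth limits Il12a, at 5.82 to 85.3 estimated counts a library.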
